A study of Homo sapiens with 6 samples.

Results

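The proteasome subunit genes are the 37 gene names of the PSMA, PSMB, PSMC and PSMD series, each followed by a number, among 22826 gene names in an RNA sequencing table of IMR-32 cells. They were chosen by name and not by any measured value. IMR-32 is an established human neuroblastoma line with amplified MYCN, labelled wild type, and all libraries came from this 1 line. The cells received 25 nM PTC-028, a compound used to inhibit the Polycomb protein BMI1, or its solvent DMSO, for 24 h, and each group had 3 libraries of poly(A)-selected RNA. Values are TPM, a transcript abundance corrected for gene length and scaled to a fixed total per library, so each value is relative to the rest of its library. TPM carries no read depth, so the depth behind each value is unknown. The labels do not say whether the replicates were separate cultures, and the p-values then cover the spread among 6 libraries that may be technical.

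The 26S proteasome degrades proteins marked with ubiquitin. Its 20S core is a barrel of stacked rings: alpha subunits (PSMA) form the outer rings and the gate, and beta subunits (PSMB) form the inner rings that hold the protease sites. The 19S cap contains a ring of ATPases (PSMC) that unfold substrates and feed them into the core, and non-ATPase subunits (PSMD) that bind ubiquitin, remove it or build the scaffold. Cells that sense too little proteasome activity raise many subunit genes together through the transcription factor NRF1 (gene NFE2L1), which binds antioxidant response elements, and interferon replaces the catalytic beta subunits by immunoproteasome forms. The proteasome also degrades p53 after its ubiquitin ligase MDM2 has tagged it.

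None of the subunits passed the test between PTC-028 and DMSO, but most lay slightly lower in PTC-028. Of the 37 genes, 34 reached 1 TPM in 3 or more of the 6 libraries and were tested, and 30 of these had a log2 fold change below 0, against 42.4% of all 13552 genes tested. The 34 members had a median log2 fold change of -0.092, against 0.032 for all genes tested. Fewer cells in a given state and less mRNA per cell cannot be told apart in these bulk samples. In 13 members every PTC-028 library lay below every DMSO library, 38.2% of those tested against 10.7% of all genes. No tested member lay the other way, against 13.6% of all genes. The 13 were 6 of 7 alpha subunits, 3 of 7 constitutive beta subunits, 3 of 6 ATPases and 1 of 13 non-ATPases.

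The test was limma on log2(TPM + 1) with Benjamini-Hochberg adjustment over all genes tested, and the threshold was 0.05 on the adjusted p. By this rule 0 members were lower and 0 higher, against 1.09% and 1.01% of all genes. At an unadjusted p under 0.05, 10 members (29.4%) were lower and 0 higher, against 7.55% and 10.2% of all genes. Under median ratio scaling 33 of 34 members lay below 0, where the median of all genes was 0.0060. After quantile normalisation 26 lay below 0, 9 had groups that did not overlap and the median of the 34 was -0.053, a smaller difference by more than 1.5 times. The median of all genes was then -0.0016. A scaling shifts all genes, and the shares of all genes under these 2 scalings are not given, so these counts have no background beside them.

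The promoters of 3 subunits are shown. PSMC3 and PSMA3 had the 2 largest differences between the groups. PSMD12 had almost none, and its promoter holds the letters of the element that NRF1 binds. PSMD12 was picked for both traits, so the 3 promoters cannot show whether the letters go with the difference. Each run is the 250 bases before the RefSeq start in GRCh38.p14, read 5′ to 3′ on the strand of the gene. Capitals mark TGACNNNGC (the antioxidant response element core), CCAAT (the NF-Y box) and GGGCGG (the GC box), each searched on both strands.
PSMC3 (chr11:47426440-47426689, minus strand): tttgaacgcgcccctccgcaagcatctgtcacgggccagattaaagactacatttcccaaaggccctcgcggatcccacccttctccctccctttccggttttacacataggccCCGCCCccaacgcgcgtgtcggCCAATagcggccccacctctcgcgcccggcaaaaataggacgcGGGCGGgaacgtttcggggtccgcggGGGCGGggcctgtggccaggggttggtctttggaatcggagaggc
PSMA3 (chr14:58244593-58244842, plus strand): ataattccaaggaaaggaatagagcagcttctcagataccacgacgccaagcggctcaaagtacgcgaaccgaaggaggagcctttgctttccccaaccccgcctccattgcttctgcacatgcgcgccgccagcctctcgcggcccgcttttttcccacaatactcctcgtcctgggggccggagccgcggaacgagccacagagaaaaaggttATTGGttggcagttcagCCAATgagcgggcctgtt
PSMD12 (chr17:67366578-67366827, minus strand): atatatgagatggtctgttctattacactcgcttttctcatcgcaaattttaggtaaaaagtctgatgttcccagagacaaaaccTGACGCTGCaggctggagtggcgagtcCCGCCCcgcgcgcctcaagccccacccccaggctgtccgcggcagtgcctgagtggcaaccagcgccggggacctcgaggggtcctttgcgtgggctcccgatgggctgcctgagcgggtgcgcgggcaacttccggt
The stretch before PSMC3 held 1 CCAAT and 3 GGGCGG matches. That of PSMA3 held 2 CCAAT matches, and that of PSMD12 held 1 TGACNNNGC and 1 GGGCGG match.

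In windows from 250 bases before to 50 bases after the start, 38 windows of 32 members were in the RefSeq table. The TGACNNNGC letters occurred in 10 of the 38 (26.3%), against 13.3% of all 35116 promoter windows. CCAAT occurred in 18 (47.4%, against 34.6%) and GGGCGG in 24 (63.2%, against 45.0%). The windows with TGACNNNGC belonged to PSMA4, PSMB3, PSMB9, PSMC4, PSMC5, PSMD1, PSMD3, PSMD5, PSMD9 and PSMD12. PSMB9 and PSMD5 were not tested. Of the others, PSMA4 and PSMD1 were among the 13 members with every PTC-028 library below every DMSO library. That was so for 38.2% of all members tested and 10.7% of all genes. Whether the letters go with the difference was not tested. These matches describe letters in the reference and no binding was measured. PSMA7, PSMB1, PSMB6, PSMB7 and PSMD4 had no window in the table.

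Across the libraries, subunit mRNAs differed widely in level although the assembled particle holds its subunits in fixed proportion. PSMA4 was the most abundant, at 604 ± 35.0 TPM in PTC-028 and 655 ± 9.48 TPM in DMSO (SD, n = 3 each). PSMB1, PSMB4 and PSMA7 followed with DMSO means between 516 and 540 TPM, and the DMSO ranges of PSMB1 and PSMB4, and of PSMB4 and PSMA7, overlapped. From PSMA7 there was a gap to PSMC5 at 324 TPM in DMSO, and between PSMC5, PSMB7, PSMD2 and PSMD4 each neighbour in the order overlapped the next. The lowest of the 34 were PSMB2, PSMD10 and PSMB10, with DMSO means of 52.9, 41.4 and 34.2 TPM whose ranges did not overlap between neighbours. PSMD10 is a chaperone of cap assembly and PSMB10 takes the place of PSMB7, so the fixed proportion does not apply to them. Among the constitutive beta genes alone, DMSO means ran from 540 TPM for PSMB1 to 52.9 TPM for PSMB2. Together the 37 genes held between 0.659% and 0.668% of all TPM in the PTC-028 libraries and between 0.699% and 0.726% in the DMSO libraries.

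**Figure D1:**
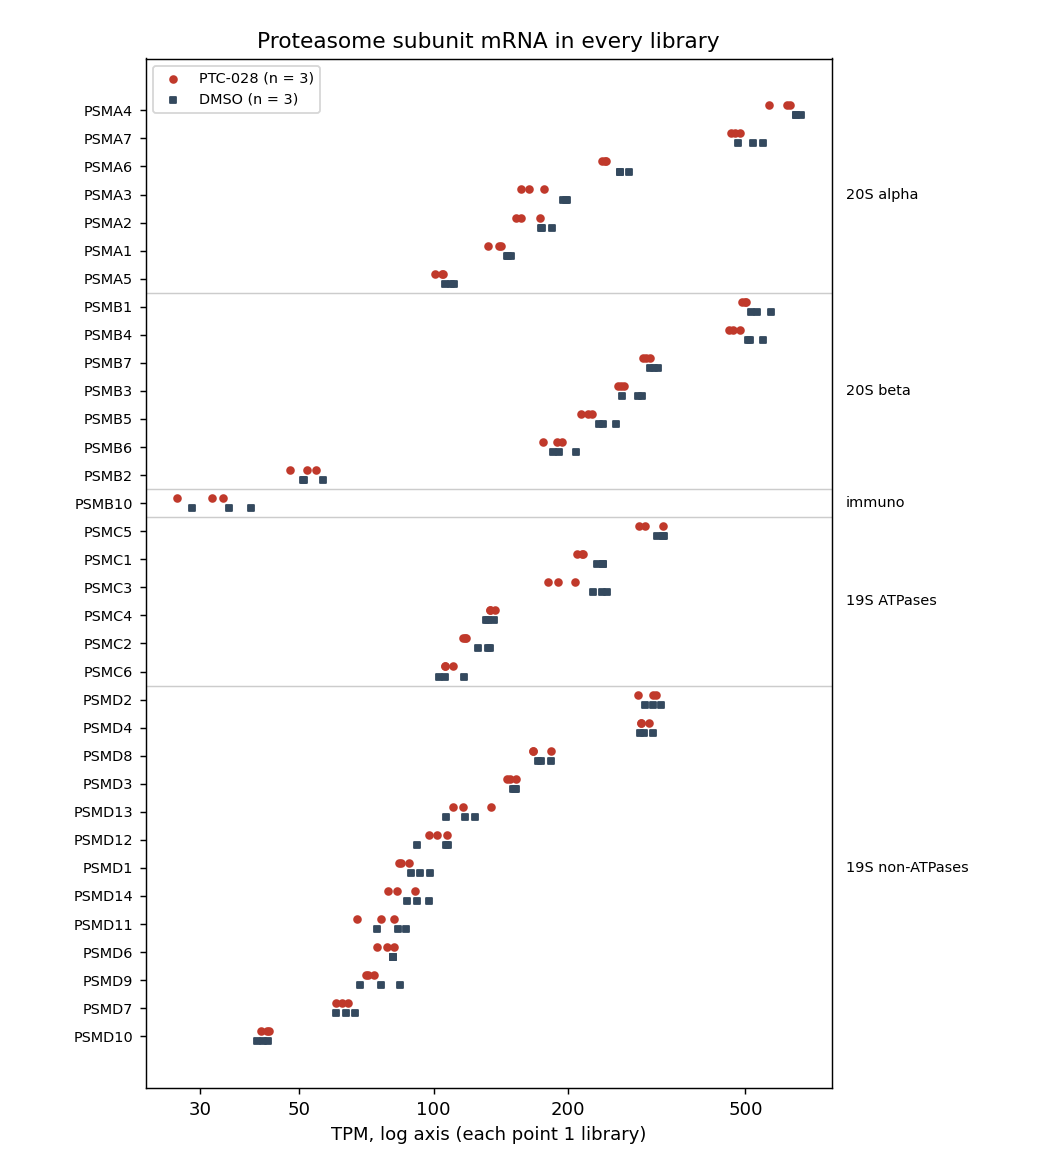
TPM of the 34 tested subunits in each of the 6 libraries, on a log axis, grouped by part and sorted by DMSO mean. Levels ran from PSMA4 at 655 TPM to PSMB10 at 34.2 TPM in DMSO, and the distance between subunits was far larger than that between PTC-028 and DMSO.

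In the outer rings, all 7 alpha subunits were below 0, from -0.25 for PSMA3 to -0.074 for PSMA5, with a median of -0.12, and 0 of 7 passed. PSMA3, which encodes the alpha-7 subunit (chromosome 14, 58244831 to 58272012, GRCh38), had 157, 163 and 177 TPM in the PTC-028 libraries, against 198, 199 and 195 TPM in the DMSO libraries. The groups did not overlap, and the PTC-028 mean was 16.1% below the DMSO mean. Its log2 fold change was -0.25 ± 0.05 (SE, n = 3 each), with a 95% confidence interval from -0.38 to -0.13 and a limma adjusted p of 0.0605. That p lay between 0.0427 and 0.205 over all alternatives and was under the threshold only when genes needed a TPM of at least 5.

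PSMA6, the alpha-1 subunit, had 243, 243 and 238 TPM in PTC-028, against 275, 261 and 261 TPM in DMSO. PSMA4, the alpha-3 subunit whose tail helps close the gate, had 564, 620 and 628 TPM in PTC-028, against 649, 649 and 666 TPM in DMSO. Neither pair of groups overlapped, and the limma adjusted p was 0.158 for PSMA6 and 0.264 for PSMA4. PSMA2, the alpha-2 subunit, had 153, 173 and 157 TPM in PTC-028, against 174, 175 and 184 TPM in DMSO. Its PTC-028 replicate 2 came within about 1 TPM of the lowest DMSO library. PSMA1 and PSMA5, the alpha-6 and alpha-5 subunits, averaged 138 ± 4.87 and 103 ± 2.34 TPM in PTC-028, against 147 ± 1.26 and 109 ± 2.67 TPM in DMSO (SD, n = 3 each). The 1 alpha gene whose groups overlapped was PSMA7, the alpha-4 subunit, at 486, 474 and 465 TPM in PTC-028 against 520, 481 and 547 TPM in DMSO.

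In the inner rings, the 7 constitutive beta subunits also had log2 fold changes below 0, from -0.15 for PSMB4 to -0.043 for PSMB2, with a median of -0.099, except that PSMB7 turned sign after quantile normalisation and PSMB2 without PTC-028 replicate 1 (0.011) or DMSO replicate 2 (0.0065). Of these, 0 of 7 passed. PSMB4, the beta-7 subunit, had 486, 468 and 458 TPM in PTC-028, against 512, 508 and 547 TPM in DMSO, a log2 fold change of -0.15 ± 0.05 (SE; limma adjusted p = 0.156). PSMB1, the beta-6 subunit, had 492, 498 and 502 TPM in PTC-028, against 532, 516 and 572 TPM in DMSO. For both genes the groups did not overlap, and DMSO replicate 3 was the highest library.

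Of the 3 catalytic subunits, only PSMB5 had groups that did not overlap. PSMB5, which carries the chymotrypsin-like site, had 221, 226 and 214 TPM in PTC-028, against 240, 235 and 257 TPM in DMSO (log2 fold change -0.14 ± 0.05, SE; limma adjusted p = 0.204). PSMB6, with the caspase-like site, had 194, 189 and 176 TPM in PTC-028, against 191, 186 and 209 TPM in DMSO, so the groups overlapped. PSMB7, with the trypsin-like site, averaged 300 ± 5.78 TPM in PTC-028 and 312 ± 7.22 TPM in DMSO (SD, n = 3 each), also with overlap, and its difference turned from -0.060 to 0.011 after quantile normalisation. The structural subunits PSMB3 (beta-3) and PSMB2 (beta-4) overlapped too, PSMB2 at 47.6, 52.1 and 54.4 TPM in PTC-028 against 51.2, 56.6 and 50.9 TPM in DMSO.

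DMSO replicate 3 was the highest of the 6 libraries in 6 of the 7 constitutive beta genes and in 4 of the 7 alpha genes. Without it, the median of the beta genes was -0.069 and that of the alpha genes -0.11. It also stood farthest out among the DMSO libraries on the first principal component of all genes, and its part in the difference was not tested further.

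**Figure D2:**
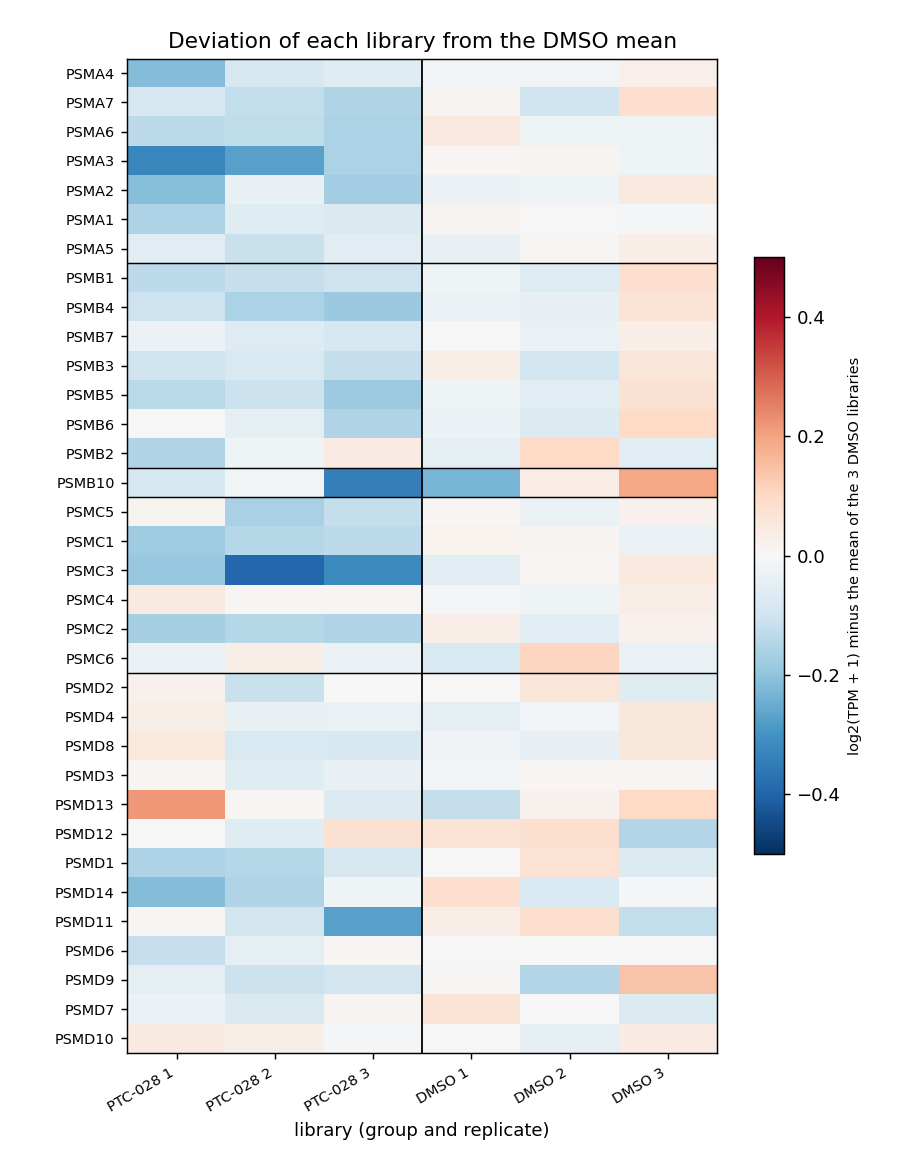
Log2(TPM + 1) of each tested subunit minus its mean over the 3 DMSO libraries, blue below and red above, with PTC-028 libraries left of the line and subunits grouped by part in the order alpha, beta, PSMB10, ATPases and non-ATPases. The alpha and beta rows are blue across PTC-028 with few exceptions, and DMSO replicate 3 is the reddest column in 6 of 7 constitutive beta rows.

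Of the immunoproteasome subunits, only PSMB10 could be tested. PSMB10, which takes the place of PSMB7 in immunoproteasomes, had 31.9, 33.6 and 26.6 TPM in PTC-028, against 28.7, 34.8 and 39.0 TPM in DMSO. The groups overlapped and the log2 fold change was -0.15 ± 0.13 (SE; limma adjusted p = 0.586). With 1 library left out the fold change ran from -0.26 to -0.049. Its TPM was 0.102 ± 0.0113 of that of PSMB7 in PTC-028 and 0.109 ± 0.0156 in DMSO (SD, n = 3 each). In GENCODE 29, 34.75% of the exon bases of PSMB10 are shared with AC040162.1 on the same strand. The share of reads assigned to PSMB10 is therefore uncertain. PSMB9, which replaces PSMB6, had 0.121, 0.153 and 0.150 TPM in PTC-028, against 0.0331, 0.0330 and 0.0690 TPM in DMSO. All these values lie near 0, and PSMB9 was not tested. They are the sum of 2 rows that have no position on the primary assembly. The level of PSMB9 at the primary locus is not given by these rows. PSMB11, the thymus-specific form, was listed at 0 in 5 of the 6 libraries, and PSMB8 and the testis form PSMA8 were not analysed here. Of 8 interferon pathway genes known to govern these subunits, 0 passed, with 0 at an unadjusted p under 0.05. NLRC5 was at 1.05, 1.66 and 0.744 TPM in PTC-028 and 1.53, 1.87 and 1.49 TPM in DMSO, and JAK1 had a log2 fold change of 0.18 (limma adjusted p = 0.471). Leukocytes normally express the immunoproteasome. Their general marker PTPRC had 3.94, 4.58 and 5.56 TPM in PTC-028, against 5.31, 3.80 and 2.87 TPM in DMSO. It had the highest means of the immune markers with a row. CD68 averaged 1.87 TPM in PTC-028 and 1.85 TPM in DMSO. CD14, LYZ and ITGAM averaged below 1 TPM in each group and were not tested. The 5 of 7 immune markers with a row summed to between 6.33 and 8.87 TPM in PTC-028 and between 5.04 and 8.06 TPM in DMSO, so the groups overlapped.

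In the ATPase ring, overlap of the groups differed between members, which were not tested against one another. PSMC3, PSMC1 and PSMC2 had groups that did not overlap, whereas PSMC4, PSMC5 and PSMC6 overlapped, and the median over the 6 was -0.12 with 0 passing. PSMC3, the ATPase Rpt5 (chromosome 11, 47418769 to 47426473, GRCh38), had the largest difference of any subunit, at 208, 180 and 190 TPM in PTC-028 against 228, 238 and 245 TPM in DMSO. The PTC-028 mean was 18.8% below the DMSO mean. Its log2 fold change was -0.30 ± 0.06 (SE, n = 3 each), with a 95% confidence interval from -0.44 to -0.16 and a limma adjusted p of 0.0515. Over the alternatives the p ran from 0.0334, with a minimum TPM of 5, to 0.174, without PTC-028 replicate 2, and the fold change from -0.36 to -0.25.

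PSMC1, the ATPase Rpt2, had 209, 215 and 217 TPM in PTC-028, against 240, 240 and 232 TPM in DMSO (limma adjusted p = 0.127). In GENCODE 29, 75.8% of the exon bases of PSMC1 are shared with NRDE2 on the opposite strand, and whether the counting used strand is not given in the sources used here. NRDE2 itself had 11.9 ± 1.41 TPM in PTC-028 and 12.2 ± 1.48 TPM in DMSO (SD, n = 3 each). PSMC1 also has 13 named pseudogenes, so the share of reads assigned to it is uncertain. PSMC2, the ATPase Rpt1, had 116, 118 and 118 TPM in PTC-028, against 134, 126 and 133 TPM in DMSO (limma adjusted p = 0.162).

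By contrast, PSMC4, the ATPase Rpt3, had 138, 134 and 134 TPM in PTC-028, against 133, 131 and 137 TPM in DMSO, a log2 fold change of 0.019 with a 95% confidence interval from -0.086 to 0.12. PSMC6, the ATPase Rpt4, was at -0.010 (interval -0.15 to 0.13), and both signs turned under a scaling, PSMC4 to -0.0097 and PSMC6 to 0.0052. PSMC5, the ATPase Rpt6, had 327, 289 and 298 TPM in PTC-028, against 326, 317 and 328 TPM in DMSO, so that PTC-028 replicate 1 lay inside the DMSO range.

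The 13 tested non-ATPases had a median of -0.030, 10 lay below 0 with TPM as deposited, and 0 passed. That median ran from -0.054 to -0.013 with 1 library left out and was -0.011 after quantile normalisation. PSMD1, the large scaffold subunit Rpn2, was the 1 gene without overlap, at 83.6, 84.5 and 88.2 TPM in PTC-028 against 93.1, 98.1 and 88.8 TPM in DMSO (log2 fold change -0.12 ± 0.06, SE; limma adjusted p = 0.304). PSMD14, the deubiquitinase Rpn11, had 79.1, 82.9 and 90.7 TPM in PTC-028, against 97.5, 87.3 and 91.6 TPM in DMSO. Its groups overlapped and the 95% confidence interval ran from -0.29 to 0.031 (limma adjusted p = 0.375). PSMD11, the scaffold subunit Rpn6, had 81.6, 76.4 and 67.2 TPM in PTC-028, against 83.3, 86.7 and 74.7 TPM in DMSO, at -0.12 with an interval from -0.32 to 0.080 and a range from -0.18 to -0.043 with 1 library left out.

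The ubiquitin receptor PSMD4 (Rpn10) averaged 296 ± 7.50 TPM in PTC-028 and 299 ± 10.6 TPM in DMSO, and PSMD2 (Rpn1), which docks shuttle factors, averaged 304 ± 14.8 TPM in PTC-028 and 310 ± 13.0 TPM in DMSO (SD, n = 3 each). Their log2 fold changes of -0.014 and -0.030 turned to 0.047 and 0.024 after quantile normalisation. The scaffold subunits PSMD3, PSMD6, PSMD7 and PSMD8 lay between -0.053 for PSMD6 and -0.028 for PSMD3, and with 1 library left out between -0.081 and 0.0044. PSMD13 (Rpn9) had 135, 116 and 110 TPM in PTC-028, against 106, 117 and 124 TPM in DMSO, so the groups overlapped. PSMD13 was at 0.052 and PSMD12 (Rpn5) at 0.0065, and each turned sign without some single libraries, PSMD12 also under median ratio scaling.

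In this set, 3 genes encode chaperones of cap assembly rather than subunits of the finished particle. PSMD9 averaged 71.7 ± 1.50 TPM in PTC-028 and 76.2 ± 7.79 TPM in DMSO, and PSMD10, also called gankyrin, 42.0 ± 0.895 TPM in PTC-028 and 41.4 ± 1.22 TPM in DMSO (SD, n = 3 each). Their log2 fold changes were -0.082 for PSMD9 and 0.022 for PSMD10, the second turning to -0.0058 under median ratio scaling. With 1 library left out PSMD9 ran from -0.16 to -0.0096 and PSMD10 from 0.00044 to 0.042. PSMD5 was low, between 0.239 and 0.587 TPM in PTC-028 and between 0.304 and 0.578 TPM in DMSO, and was not tested. The median of the other 11 non-ATPases was -0.030.

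**Figure D3:**
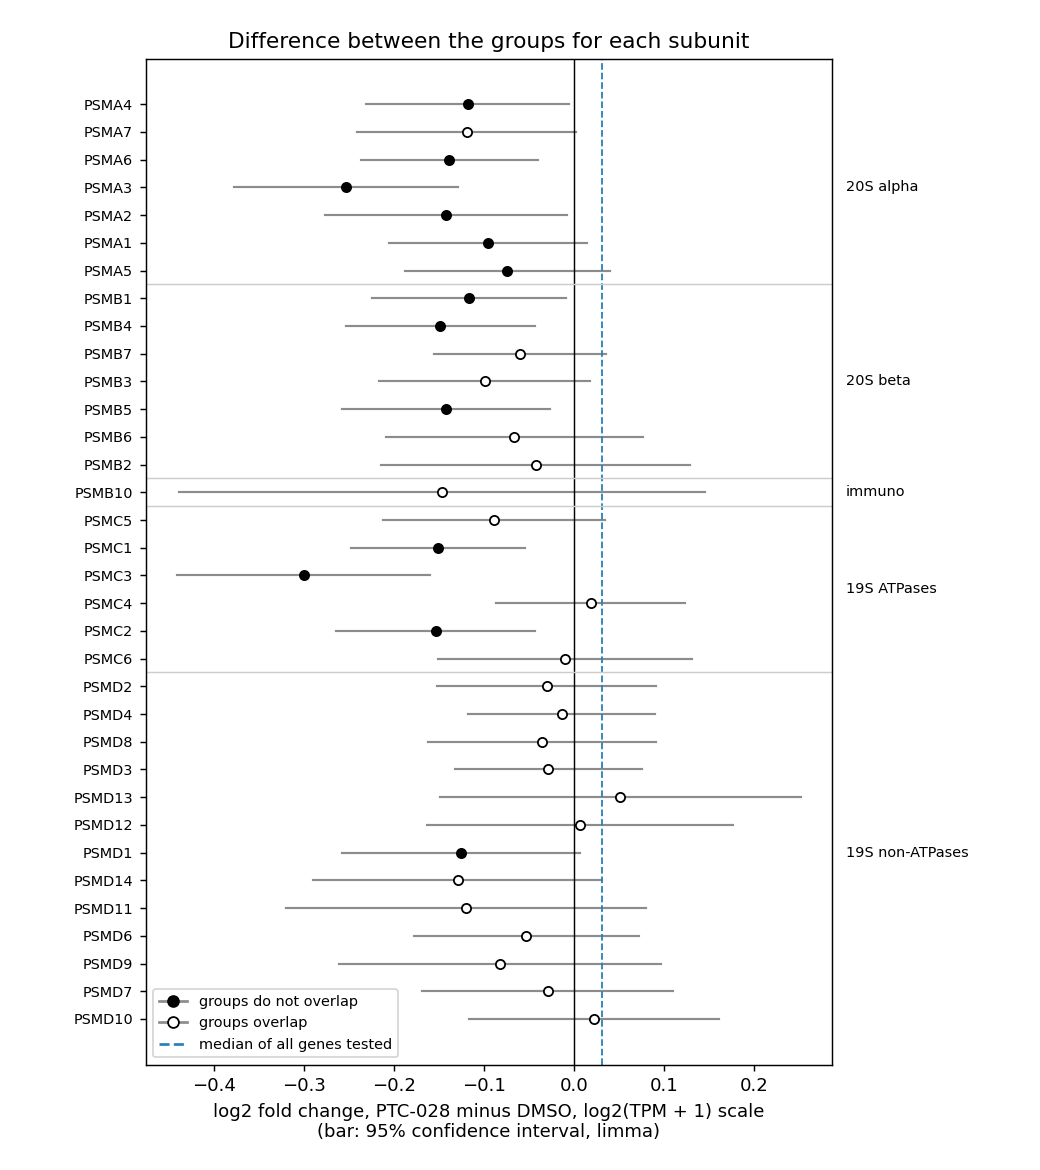
Log2 fold change of each tested subunit, PTC-028 minus DMSO, with its 95% confidence interval from limma, and filled points where the groups did not overlap. The 14 constitutive 20S genes lie left of 0 and of the dashed median of all genes (0.032), with PSMB7 turning to 0.011 after quantile normalisation and PSMB2 to as much as 0.011 with 1 library left out, while the 13 non-ATPases spread on either side from -0.13 to 0.052.

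The parts were also summed in each library. The 7 alpha genes together had 1840, 1915 and 1909 TPM in PTC-028, against 2071, 2022 and 2110 TPM in DMSO, a mean 8.70% lower. The 7 constitutive beta genes had 2010.2, 1999 and 1958 TPM in PTC-028, against 2125, 2069 and 2248 TPM in DMSO, 7.38% lower. The 6 ATPases had 1104, 1048 and 1062 TPM in PTC-028, against 1163, 1169 and 1181 TPM in DMSO, 8.51% lower. In these 3 sums every PTC-028 library lay below every DMSO library. The 13 non-ATPases had 1690 TPM in PTC-028 replicate 1 and 1601 and 1639 TPM in the others, against 1677, 1695 and 1683 TPM in DMSO, so the groups overlapped and the mean was 2.49% lower. The ratio of the summed 20S genes to the summed 19S genes was 1.43 ± 0.050 in PTC-028 and 1.48 ± 0.047 in DMSO (SD, n = 3 each), with overlap. No test was made on these sums or on the difference between parts, because the subunits share their libraries.

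**Figure D4:**
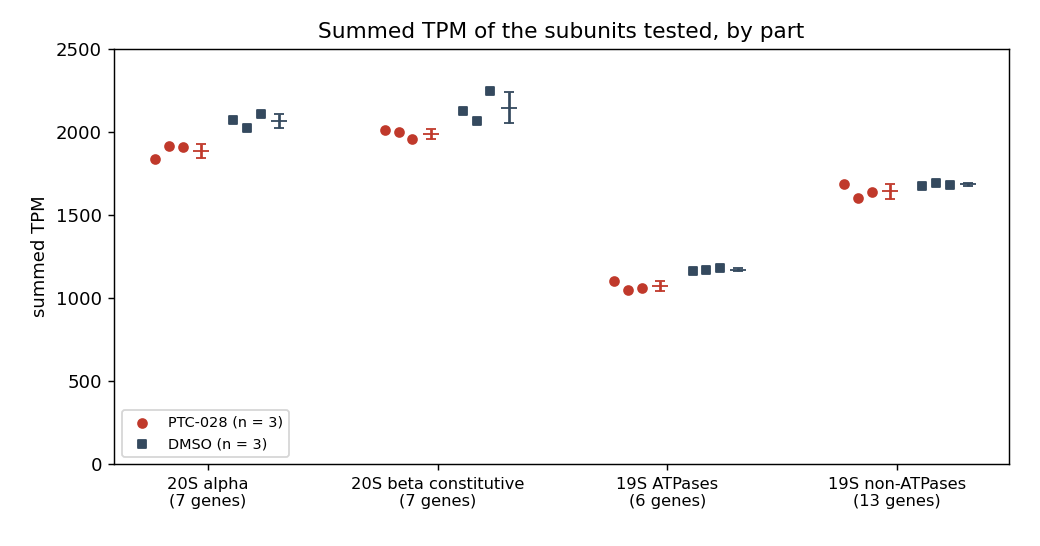
Summed TPM of the tested genes of each part in every library, with the mean and SD (n = 3 each) beside the points. The alpha, beta and ATPase sums of PTC-028 lie below those of DMSO without overlap, and the non-ATPase sums overlap.

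Genes that assemble, activate or supply the proteasome were examined as lists. Of 5 chaperones of 20S assembly, 1 fell, 0 rose and 4 lay below 0. PSMG1, which pairs with PSMG2 to guide the alpha ring, fell to 59.5, 57.1 and 53.5 TPM in PTC-028, against 75.1, 81.9 and 74.4 TPM in DMSO. Its log2 fold change was -0.44 ± 0.07 (SE, n = 3 each; limma adjusted p = 0.0174). The call was lost without PTC-028 replicate 2 or 3 or DMSO replicate 1, without the mean-variance trend and with the replicate number as a block, with an adjusted p of up to 0.0773. PSMG3, another chaperone of the alpha ring, had 58.5, 62.8 and 57.7 TPM in PTC-028, against 64.8, 69.9 and 71.9 TPM in DMSO, and did not pass (limma adjusted p = 0.169).

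Among 7 other 19S subunits and bound enzymes, 0 passed and 6 lay below 0, with a median of -0.061. The deubiquitinase UCHL5 and its receptor ADRM1 (Rpn13) were at -0.20 and -0.14 (limma adjusted p = 0.192 and 0.295), and for both every PTC-028 library lay below every DMSO library. Of 5 activators and inhibitors of the 20S core, 0 passed. PSMF1, the inhibitor PI31, had 83.8, 80.9 and 83.3 TPM in PTC-028, against 73.8, 70.2 and 73.2 TPM in DMSO, a log2 fold change of 0.19 ± 0.05 (SE; limma adjusted p = 0.125). PSME2, a subunit of the interferon-inducible PA28 cap, was at -0.19 (limma adjusted p = 0.309).

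The regulators of the NRF1 response gave 0 of 7 passing, with 0 at an unadjusted p under 0.05. MAFK and DDI2, a partner of NRF1 and the protease that releases it, were at 0.27 and 0.19 (limma adjusted p = 0.515 and 0.563). With 1 library left out MAFK ran from 0.13 to 0.40 and DDI2 from 0.040 to 0.30. NFE2L1, given here after its values were seen, had 187, 171 and 178 TPM in PTC-028, against 183, 193 and 155 TPM in DMSO. Of 6 ubiquitin and E1 genes, 0 passed. UBA1, the main ubiquitin-activating enzyme, had 177, 173 and 174 TPM in PTC-028, against 142, 155 and 151 TPM in DMSO, a log2 fold change of 0.23 ± 0.05 (SE; limma adjusted p = 0.0667), and passed after quantile normalisation (limma adjusted p = 0.0316). UBB, a polyubiquitin gene, was at 0.084 (limma adjusted p = 0.309). Of 8 genes of the p97 segregase and the shuttles, 0 passed, with UFD1, a p97 cofactor, at -0.23 ± 0.05 (SE; limma adjusted p = 0.0671) and UBXN1 at 0.11 (limma adjusted p = 0.425).

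CDKN1A is the p53 target that encodes p21. It had 286, 315 and 280 TPM in PTC-028, against 79.0, 77.2 and 79.8 TPM in DMSO (limma adjusted p = 7.61e-06). This was the smallest adjusted p of all genes tested. As earlier results of these data were known when genes were chosen, CDKN1A is no independent check of the labels. In all genes, 148 were lower and 137 higher. The neuroblastoma markers were high, with 9 of 9 tested and summed levels between 2958 and 3036 TPM in PTC-028 and between 2715 and 2847 TPM in DMSO. Libraries held between 13311 and 13723 gene names with a TPM of at least 1, and mitochondrially encoded genes took between 5.39% and 6.00% of TPM in PTC-028 and between 4.50% and 5.60% in DMSO. The 8 proteasome pseudogenes with a row reached at most 0.906 TPM in any library, and 13 members share some exon bases with another gene in GENCODE 29. On the same strand the largest shares were 34.75% for PSMB10 and 24.66% for PSMA1. Proteasome protein and activity were not measured.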

How the data were processed

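RNA sequencing of IMR-32 cells gave 3 PTC-028 and 3 DMSO libraries. The authors deposited 1 table of TPM per gene and library, used as deposited. Per the submitters' processing notes the build was GRCh38; which aligner, quantifier and annotation made the values is not given in the sources used here. Rows that share a symbol were summed, which turned 23555 rows into 22826 gene names. The 29 rows whose symbol had been turned into a date were kept apart by identifier. Positions came from GENCODE 29 by identifier.

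Genes that reached 1 TPM in 3 or more of the 6 libraries were fitted on log2(TPM + 1) by limma (version 3.58.1, R 4.3.3), with a term for treatment and no other, eBayes with a trend and two-sided p-values adjusted over all genes tested. The log2(TPM + 1) scale understates the change of low genes. The procedure was tested on simulated data with planted changes larger than that of any tested subunit. It does not show how often changes of the size seen in the subunits would be found. The members and lists were chosen with earlier results of these data known. All members may be named. From each other list up to 4 genes that pass are named by smallest p, or, where fewer than 2 pass, the 2 with the smallest p. Marker lists are given as sums, and 1 marker is not reported here. Alternatives were other pseudocounts, filters, scalings and variance models, unsummed rows, a block for the replicate number, and leaving out each library.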

Additional observations from a re-analysis of the deposited data

How the results depend on the processing

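No subunit was called higher under any alternative, and 2, PSMC3 and PSMA3, were called lower with a minimum TPM of 5. In 490 of 510 refits of single subunits, direction and side of the threshold did not differ from those reported, 18 turned sign and 2 passed. The signs that turned under a scaling were PSMC4 (-0.0097), PSMD10 (-0.0058) and PSMD12 (-0.022) under median ratio scaling, and PSMB7 (0.011), PSMC6 (0.0052), PSMD2 (0.024) and PSMD4 (0.047) under quantile normalisation. With 1 library left out, PSMB2 ran from -0.084 to 0.011, PSMC6 from -0.048 to 0.044, PSMD2 from -0.060 to 0.010, PSMD4 from -0.035 to 0.014, PSMD7 from -0.064 to 0.0044, PSMD12 from -0.066 to 0.046 and PSMD13 from -0.032 to 0.11.

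The median log2 fold changes moved to -0.15 (alpha), -0.15 (ATPases), -0.059 (non-ATPases) and -0.12 (all subunits) under median ratio scaling, and to -0.067 (alpha), -0.048 (beta), -0.074 (ATPases), -0.011 (non-ATPases), -0.053 (all subunits) and -0.0016 (all genes) under quantile normalisation. With 1 library left out the alpha median ran from -0.15 to -0.11, the beta median from -0.14 to -0.069, the ATPase median from -0.14 to -0.10, the non-ATPase median from -0.054 to -0.013 and that of all subunits from -0.099 to -0.068. In these refits 27 to 31 subunits lay below 0 and 14 to 18 had groups that did not overlap, where fewer libraries make overlap rarer. The shares of all genes in these refits are not given.

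In all genes, 60 were higher and 80 lower with no filter, and 87 and 50 without a trend. With 1 library left out, between 38 and 149 were higher and between 42 and 137 lower. The causes were not tested. With the replicate number as a block, 51 were higher and 48 lower and 0 subunits passed. Same-numbered libraries did not deviate together (r = 0.053, -0.015 and -0.12), and not every library correlated best with its own number. Counting the subunits below 0 or without overlap, and the alternatives for genes of the other lists, were added after seeing the data. Read depth is unknown, so it sets no limit that can be stated.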
